A study of Mus musculus with 48 samples.

Results

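When 2 oncogenes act on the same hepatocytes, their joint effect on a gene can be the sum of their separate effects, or it can lie above or below that sum. The data described here measured this in mouse liver 10 days after activation of a mutant β-catenin, of MYC, or of both, in RNA, in ribosome-protected fragments (RPFs) and in translation efficiency (TE, the ratio of RPF to RNA). All day 10 libraries of the series were used, which is 24 of 48 libraries and 12 of 24 mice, with 3 mice per genotype. For each gene the interaction was (BM minus Bcat) minus (Myc minus WT) on the log2 scale, so that 0 means that the 2 effects add on the log2 scale (their fold changes multiply), a positive value that the joint effect lay above the sum, and a negative value that it lay below. A gene was called where the adjusted p of edgeR's quasi-likelihood test over all tested genes was under 0.1.

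The 4 genotypes were WT, Ctnnb1ex3/+ (Bcat, in which Cre removes exon 3 of a Ctnnb1 allele and leaves a stabilised β-catenin), R26-LSL-MYC (Myc, in which Cre releases a MYC transgene at Rosa26), and Ctnnb1ex3/+; R26-LSL-MYC (BM). All mice, WT included, were aged 2 to 4 months, had a mixed C57BL/6 background and had received AAV8.TBG.PI.Cre.rBG, a virus that drives Cre from the hepatocyte promoter TBG, so the alleles were recombined in hepatocytes and the other liver cells kept them unrecombined. Each sample was whole liver of an individual mouse, and the RNA and the RPF library of a mouse came from the same lysate. The labels give every mouse as male, while the study's methods name both sexes for its animal work in general. RNA of Ddx3y, a helicase gene of the Y chromosome, was 74.6 to 191 counts per 1000000 of the library (CPM) in the 12 mice. Day 4 mice of the same genotypes were used only for a comparison of the 2 times.

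β-Catenin is the effector of canonical Wnt signalling, which in liver holds the program of the hepatocytes around the central vein, including glutamine synthesis, and keeps periportal functions such as the urea cycle low there. MYC is a transcription factor known for raising ribosome production and cell growth. Ribosome profiling counts the mRNA fragments shielded by translating ribosomes, so a change in RPFs can come from the amount of an mRNA, from how densely it is translated, or from both.

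RPF libraries held 9942043 to 14380713 counts in coding sequences and RNA libraries 3254141 to 5408053 counts, with the 3 BM mice lowest in RNA (3254141 to 4060257). The summed level of 9 hepatocyte markers was 41097 to 118598 CPM in RNA in every mouse, and that of 14 lymphocyte and neutrophil markers 2.29 to 16.8 CPM. BM mouse 1 stood apart from the other 2 BM mice. In RNA, 9.37% of genes lay more than 1 log2 unit from the mean of the other 2 mice of the genotype, against 1.39% to 3.92% in the other 11 mice, and in RPFs the share was 13.8% against 0.894% to 4.55%. Its erythroid marker sum was 228 CPM, against 677 and 933 CPM in the other 2 BM mice, and its cholesterol synthesis sum 9664 CPM, against 4605 and 4075 CPM. Most counts and genes are therefore given with and without this mouse, which the labels do not mark in any way.

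Many genes departed from the sum at both layers, and more lay below it than above it. In RNA, 422 of 11760 genes (3.59%) lay above the sum and 534 (4.54%) below it. In RPFs, 568 of 11857 genes (4.79%) lay above and 911 (7.68%) below. Without BM mouse 1 the counts were 1295 (10.9%) and 1735 (14.6%) of 11919 genes in RNA, and 2091 (17.4%) and 2932 (24.5%) of 11988 genes in RPFs. All 422 RNA genes above, 531 of the 534 below, and all RPF calls were also called without that mouse. BM mouse 1 on its own had the same sign as the call made without it for 86.5% of RNA genes above and 88% below, and for 74.7% and 78.8% in RPFs, mostly with smaller values. Both values use the same WT, Bcat and Myc mice, so part of this agreement is built in. In RNA the median of the genes called below without it was −1.24 in the fit of 11 mice and −0.45 in BM mouse 1 alone.

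**Figure D1:**
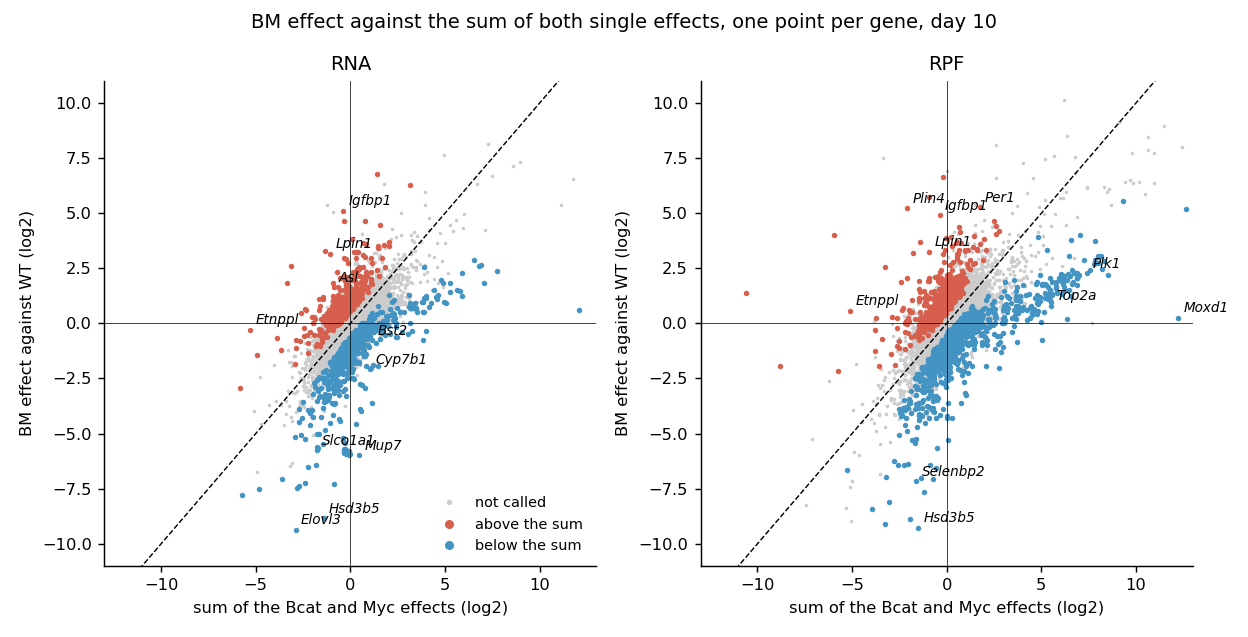
Each point is a gene, with the sum of the separate Bcat and Myc effects on the x axis and the BM effect on the y axis, both as log2 difference from WT over 12 mice, for RNA and RPFs. Points on the dashed line equal the sum, red genes were called above it (422 in RNA, 568 in RPFs) and blue genes below it (534 and 911).

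The number of calls depended on which mice entered. Over the 11 fits that each left out 1 mouse other than BM mouse 1, RNA calls ranged from 150 to 393 above and 197 to 483 below, and RPF calls from 205 to 522 and 316 to 656. The lowest counts came without BM mouse 2 (150 and 197 in RNA, 205 and 316 in RPFs) and without BM mouse 3 (150 and 206, 209 and 410). The scaling of the libraries also mattered. With library totals alone as scaling factors the RNA calls were 231 above and 429 below (median of all genes −0.05), and the RPF calls 403 above and 1057 below (median −0.14).

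**Figure D2:**
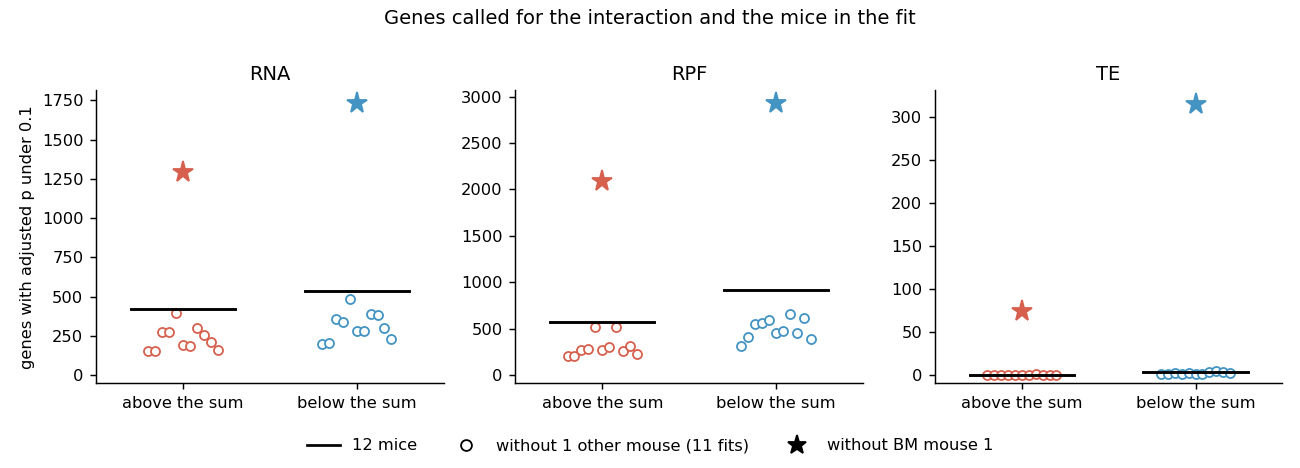
Genes called above and below the sum in RNA, RPFs and TE. The black line is the count over 12 mice, open circles are the 11 fits that left out 1 mouse other than BM mouse 1, and the star is the fit without BM mouse 1, which gave the highest count at each layer and in each direction.

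The departures took 4 forms. Of the 956 RNA genes called, 452 (47.3%) had both separate effects within 0.5 log2 units of WT, so that the departure was a response of BM alone. Synergy, a BM effect that went further than the sum in the sum's own direction, was seen in 175 (18.3%). Antagonism, a BM effect that fell short of the sum, was seen in 223 (23.3%), and in 106 (11.1%) the BM level lay at least 0.5 log2 units on the other side of WT from the sum. Over all tested RNA genes these shares were 67%, 12.8%, 18.4% and 1.84%. Without BM mouse 1 the called RNA genes had 58.8%, 15.3%, 16% and 9.86%, against 67%, 13.5%, 16.5% and 2.96% of all genes. In RPFs the called genes had 46.7%, 15.1%, 26.7% and 11.4% over 12 mice, against 63.2%, 14.6%, 19.8% and 2.48% of all genes. Without BM mouse 1 the RPF shares were 60.3%, 15.1%, 15.8% and 8.76%, against 63.2%, 15.3%, 17.5% and 4.09%. The 3 BM mice lay outside the range of the other 9 mice for 64.2% of called RNA genes and 21.6% of all tested genes, and in RPFs for 57.1% and 23.3%. On the linear CPM scale the departure kept its sign for 421 of the 422 genes above and 508 of the 534 below. RNA and RPF calls overlapped in direction: 216 genes above at both layers are 52.3% of the RNA calls and 39.6% of the RPF calls that were tested at both, and 335 genes below are 64.5% and 39%. Opposite calls occurred for 1 gene over 12 mice, and for 30 genes above and 4 below in RNA without BM mouse 1.

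Genes that liver expresses more in males lay far below the sum, with a median far below the WT level in BM. Of 36 such genes, listed after their values had been seen, 33 of 35 tested were called below in RNA and 27 of 29 in RPFs, with a median interaction of −4.86 and −3.83 (all genes 0.00 and −0.03). In RNA the median effects against WT were −0.31 in Bcat, −0.01 in Myc and −5.72 in BM, and in RPFs −0.76, −0.04 and −4.30. Leaving out any mouse gave 33 or 34 calls in RNA and 24 to 27 in RPFs. These are bulk livers, in which fewer cells of a type and less RNA per cell cannot be told apart.

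Hsd3b5 (ENSMUSG00000038092, chr3:98525941-98553068 in GRCm39), a steroid dehydrogenase of male liver, had 213, 192 and 247 RPF CPM in WT mice 1 to 3, 148, 107 and 120 in Bcat, 133, 137 and 127 in Myc, and 0.297, 0.398 and 0.336 in BM. All BM mice lay far below all others, and the 2 single genotypes overlapped. Its RPF interaction was −7.76 ± 0.267 (SE, adjusted p 1.42e-08, and −7.65 without BM mouse 1). In RNA its BM level was at most 3 counts per mouse, so its fitted value there gives no bound.

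Elovl3, a fatty acid elongase, had 521, 261 and 525 RNA CPM in WT, 379, 119 and 162 in Bcat, 110, 131 and 107 in Myc, and 1.26, 0.241 and 0.277 in BM, with an RNA interaction of −6.47 ± 0.765 (adjusted p 0.000324). BM mice 2 and 3 had at most 1 count each, so no value is given without BM mouse 1. Slco1a1, an organic anion transporter, had 1270, 1090 and 1394 RNA CPM in WT, 842, 704 and 748 in Bcat, 639, 695 and 457 in Myc, and 18.1, 24.1 and 27.7 in BM (−3.97 ± 0.277, adjusted p 3.75e-06, and −3.82 without BM mouse 1). In both genes every BM mouse lay far under every mouse of the other 3 genotypes.

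Dio1, a deiodinase that activates thyroid hormone and is not on the list, had 63 to 148 RNA CPM in WT, 42.1 to 75.1 in Bcat, 81.4 to 154 in Myc and 0 to 1.26 in BM (−6.43 ± 0.693, adjusted p 0.000217), where BM mice 2 and 3 had at most 3 counts. Cyp7b1, an oxysterol hydroxylase of the alternative bile acid pathway, reversed its sign: it had 331, 236 and 491 CPM in WT, 731, 551 and 462 in Bcat, 509, 414 and 375 in Myc, and 85.3, 84.9 and 81.9 in BM (−3.08 ± 0.335, adjusted p 0.000217, and −3.10 without BM mouse 1). The BM mice lay under every other mouse, and the single genotypes overlapped WT or lay above it. Among the major urinary proteins, pheromone carriers secreted by male liver, Mup3 lay below the sum by −4.62 in RNA (adjusted p 2.13e-05) and −2.16 in RPFs (0.0031), and Mup7 by −6.47 in RNA (0.000346). Reads of these near-identical genes may be shared among copies. The Hsd3b5, Elovl3, Slco1a1, Dio1, Cyp7b1, Mup3 and Mup7 calls were made in each of the 12 fits that left out 1 mouse.

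Slc30a10, a manganese transporter outside this list, also lay below the sum. It had 84.1 to 101 RNA CPM in WT, 26.5 to 34.8 in Bcat, 46 to 62.6 in Myc, and 2.53, 0 and 0 in BM (−4.29 ± 0.589, adjusted p 0.000951 over 12 mice), and as BM mice 2 and 3 had no count, no value is given without BM mouse 1.

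Female-biased genes were mostly not called. Of 18 such genes, also listed after values were seen, 1 of 9 tested in RNA and 2 of 10 in RPFs were called above and none below (edgeR), with medians of 0.53 and 1.49. Leaving out BM mouse 1 gave 2 of 11 above in RNA, and 5 above and 1 below of 12 in RPFs. Against WT their median RNA effect in BM was −1.27, and 0.11 without BM mouse 1, where 2 more genes were tested. Their summed RPF level was 1347 to 2075 CPM in WT, 548 to 670 in Bcat, 1184 to 1730 in Myc and 612 to 1224 in BM, so BM lay under WT in RPFs without overlap. Growth hormone signalling is the pathway known to set sex-biased liver expression, and its genes were also listed after values were seen. Of its 10 tested genes none was called above, and 2 in RNA and 1 in RPFs were called below, with medians of −0.23 and −0.40. Those counts were 1 above and 2 below in RNA, and 1 and 4 in RPFs, without BM mouse 1. Over all genes 3.59% were called above and 4.54% below in RNA, and 4.79% and 7.68% in RPFs. Without BM mouse 1 these shares were 10.9% and 14.6% in RNA, and 17.4% and 24.5% in RPFs. The part of this pathway in the male-biased values was not tested.

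**Figure D3:**
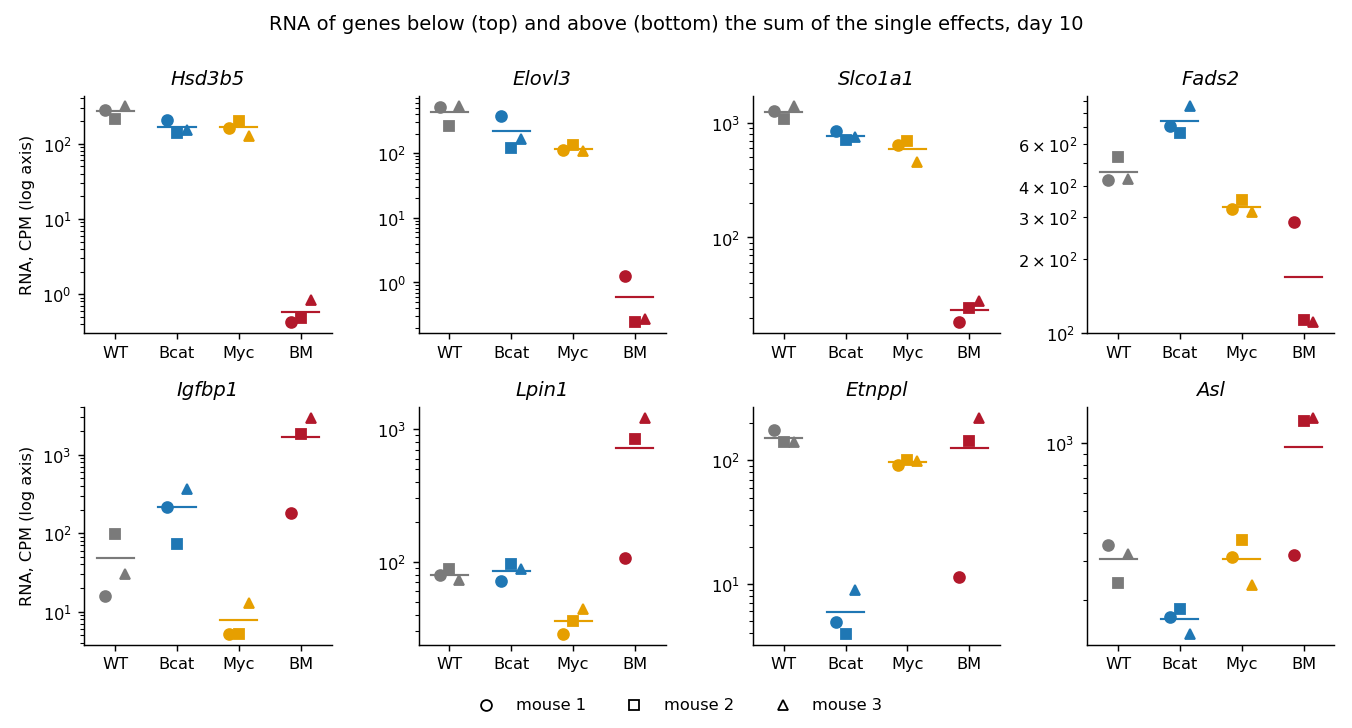
RNA level in CPM (log axis) in each of the 12 mice for 4 genes below the sum (Hsd3b5, Elovl3, Slco1a1, Fads2) and 4 above it (Igfbp1, Lpin1, Etnppl, Asl). Circles, squares and triangles are mice 1, 2 and 3 of a genotype and the bar is their mean. In the lower group BM sits under the other genotypes, and in the upper group BM mice 2 and 3 are the highest or, for Etnppl, recover the WT level, with BM mouse 1 closer to the others.

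Cell cycle genes lay below the sum, with more calls in RPFs than in RNA. Their median RPF effect against WT was 1.51 in Bcat, 1.54 in Myc and 0.65 in BM. Of 96 genes tested in RPFs, 58 were called below and none above, with a median interaction of −2.30. In RNA 23 of 93 were called below and none above, with a median of −0.99. Leaving out BM mouse 1 raised the calls below to 71 of 97 in RPFs (−3.00) and to 46 of 94 in RNA (−1.20). The list's median level per mouse, as log2 ratio to the WT mean in RPFs, was 1.00, 0.96 and 1.48 in Bcat, 0.61, 0.65 and 2.03 in Myc, and 0.95, 0.45 and 0.30 in BM. Myc mouse 3 was therefore highest and BM overlapped Myc. Without Myc mouse 3 the calls below were 41 in RPFs (−1.64) and 8 in RNA (−0.60). The RPF count was 28 without BM mouse 2, 34 without BM mouse 3, 30 without WT mouse 1 and 30 without WT mouse 3. The RNA count was 6 without WT mouse 3, 8 without BM mouse 2, 10 without BM mouse 3, 12 without WT mouse 1 and 15 without Bcat mouse 3.

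Top2a (chr11:98883769-98915062 in GRCm39), the topoisomerase that untangles replicated DNA, had 4.46, 12 and 5.22 RPF CPM in WT, 46.9, 47.1 and 103 in Bcat, 14.5, 15.9 and 78.5 in Myc, and 24.1, 6.76 and 6.72 in BM (−4.70 ± 1.03, adjusted p 0.0264, and −5.61 without BM mouse 1). Every Bcat mouse exceeded every BM mouse, while BM overlapped WT and Myc. Its RNA spanned 40.5 to 69 CPM in WT and 62.7 to 81.3 CPM in BM, with an interaction of −0.99 that was not called (adjusted p 0.19). Plk1, a mitotic kinase that is not on the list, had 0.546, 1.68 and 0.373 RPF CPM in WT, 11.1, 7.1 and 29.9 in Bcat, 4.4, 3.43 and 17.6 in Myc, and 7.55, 2.62 and 2.44 in BM (−5.16 ± 1.14, adjusted p 0.0272, and −5.91 without BM mouse 1).

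E2f8, a repressor of the E2F family that acts in hepatocyte polyploidisation, differed in shape. It had 11.4, 11.8 and 11.7 RPF CPM in WT, 11.6, 10.3 and 11.9 in Bcat, 7.51, 6.1 and 7.85 in Myc, and 1.07, 0.636 and 0.672 in BM (−3.08 ± 0.277, adjusted p 0.000162, and −3.39 without BM mouse 1), so BM was lowest and Bcat stayed at the WT level. Cdc6, which loads the replicative helicase, lay below the sum by −5.75 in RPFs (adjusted p 0.00687) and Fanci, a DNA crosslink repair protein outside the list, by −4.01 (adjusted p 0.0326). Top2a, Plk1, E2f8, Cdc6 and Fanci were called in RPFs in each of the 12 fits that left out 1 mouse. The 3 members called above in RPFs without BM mouse 1 were Nasp (0.67, adjusted p 0.0231), a histone chaperone, Gmnn (0.70, 0.0315), the inhibitor of replication licensing, and Blm (0.86, 0.053), a helicase.

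Histone genes, listed after values were seen, also lay below the sum in RPFs. In RPFs 19 of 38 were called below (median −1.22), in RNA 4 of 54 (median −0.12), and none was called above at either layer (edgeR). Leaving out BM mouse 1 gave 24 below and 1 above in RPFs, and 7 and 1 in RNA, where the median turned to 0.04. The count below in RPFs was 9 without WT mouse 3, 10 without WT mouse 1, 11 without BM mouse 2, and 12 each without BM mouse 3, Bcat mouse 3 and Myc mouse 3. H2bc14, a core histone, had 2, 2.21 and 0.994 RPF CPM in WT, 4.19, 4.31 and 5.78 in Bcat, 2.27, 2.44 and 7.77 in Myc, and 1.84, 0.795 and 0.756 in BM (−3.25 ± 0.721, adjusted p 0.0272, and −3.83 without BM mouse 1). Histone copies are near identical in sequence, and their reads may be shared.

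Interferon response genes stood highest in Bcat, and BM fell short of that level. Their median effect in RNA was 2.10 in Bcat, −0.22 in Myc and 0.61 in BM. All 28 tested genes had a negative RNA interaction (median −1.33), of which 7 were called, and 10 of 28 were called below in RPFs (median −1.30). None was called above. These calls were 21 and 22 without BM mouse 1. Per mouse the list's RNA median was 2.14, 2.40 and 0.83 above WT in Bcat mice 1 to 3 and 1.03, 0.08 and 0.07 in BM mice 1 to 3, so Bcat mouse 3 and BM mouse 1 overlapped. Without Bcat mouse 3, 15 genes were called at each layer, and over the other 10 fits 2 to 4 were called in RNA and 1 to 6 in RPFs, so the number of calls rests on which mice entered. The summed RNA level of 14 lymphocyte and neutrophil markers was also highest in Bcat, at 9.34 to 16.8 CPM against 5.44 to 9.85 in WT, 2.29 to 5.96 in Myc and 4.58 to 10.3 in BM. In RPFs it was 19.5 to 42.9 CPM in Bcat, 11.3 to 20.9 in WT, 9.7 to 15.1 in Myc and 22.5 to 25.3 in BM. The part of these cells in the interferon values was not tested.

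Bst2, tetherin, which holds budding virus at the cell surface, was called at both layers in every fit. It had 80.8, 70.4 and 60.1 RNA CPM in WT, 176, 134 and 83.2 in Bcat, 72, 79.4 and 106 in Myc, and 55.6, 34.7 and 33.8 in BM (−1.94 ± 0.364, adjusted p 0.0106, and −2.22 without BM mouse 1), with all BM mice under all others. Its RPF interaction was −1.35 ± 0.276 (adjusted p 0.0213). Stat2, a signal transducer of the interferon receptor, had 56.9, 66.7 and 48.9 RPF CPM in WT, 83.5, 102 and 78.5 in Bcat, 51.4, 45.8 and 38.7 in Myc, and 46.7, 20.7 and 18.4 in BM (−1.27 ± 0.411, adjusted p 0.0857, and −1.82 without BM mouse 1). That call was lost in 10 of the 11 fits that left out a mouse other than BM mouse 1, and its RNA interaction of −1.01 was not called (adjusted p 0.174).

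The promoters of these 2 genes are shown because interferon-responsive promoters commonly hold a repeat of GAAA, bound by interferon regulatory factors. In RefSeq windows from 250 bases before to 50 bases after each start (GRCm38.p6), the motif searched, 2 copies of GAAA with any 2 bases between them, was found on either strand in 14 of 25 windows of the list (56%; 14 of 22 matched genes) and in 1131 of 32851 windows of all genes (3.44%). Capitals mark the motif; in Bst2 2 matches overlap, and in Stat2 it lies on the reverse strand. The Bst2 stretch is chr8:71537527-71537662 (minus strand) and the Stat2 stretch chr10:128270248-128270345 (plus strand). The list was made of known interferon-responsive genes, so its higher share follows from that choice. A match is a description of the letters and not evidence of binding in these livers.
Bst2: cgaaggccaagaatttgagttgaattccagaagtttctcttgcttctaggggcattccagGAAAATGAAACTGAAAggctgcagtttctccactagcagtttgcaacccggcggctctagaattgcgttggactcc
Stat2: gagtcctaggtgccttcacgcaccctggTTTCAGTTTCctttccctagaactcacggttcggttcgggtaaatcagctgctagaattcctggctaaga

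Genes of fatty acid synthesis and its fed-state control leaned below the sum, with 19 of 20 negative in RNA and all 21 in RPFs, but most were not called. In RNA 6 of 20 were called below (median −1.01) and in RPFs 4 of 21 (median −1.11), with none above. Over all genes 4.54% were called below in RNA and 7.68% in RPFs. Median RNA effects were −0.36 in Bcat, −0.47 in Myc and −1.70 in BM. The counts were 17 and 16 of 21 without BM mouse 1, and 5 to 7 and 4 over the other 11 fits. Acacb, the acetyl-CoA carboxylase that restrains fatty acid oxidation, had 139, 122 and 121 RNA CPM in WT, 97.9, 111 and 124 in Bcat, 85.1, 90.3 and 82.5 in Myc, and 35.8, 26.1 and 27.4 in BM (−1.33 ± 0.201, adjusted p 0.00221, and −1.49 without BM mouse 1). All BM mice lay under all others, and the call was made in each fit that left out 1 mouse.

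Fads2, a fatty acid desaturase, had 424, 527 and 428 RNA CPM in WT, 707, 663 and 853 in Bcat, 323, 351 and 313 in Myc, and 285, 113 and 110 in BM (−1.65 ± 0.4, adjusted p 0.037, and −2.25 without BM mouse 1). The BM mice were lowest and the Bcat mice highest, without overlap. The call was lost without WT mouse 3, and in RPFs the interaction of −1.64 was not called by edgeR over 12 mice (adjusted p 0.136). It was called by DESeq2 (0.0674), in edgeR's fit of all 24 mice (0.027) and without BM mouse 1 (−2.76, 1.23e-06).

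Genes of the unfolded protein response, which adjusts the folding capacity of the endoplasmic reticulum, lay below the sum in RPFs. There 10 of 22 were called below and 1 above (median −0.71), and in RNA 2 and 1 (median −0.45). The RNA count below was 6 without BM mouse 1, and the RPF count below 13 without BM mouse 1 and 1 to 11 over the other fits, with 1 left without BM mouse 2 or Myc mouse 1 and 2 without BM mouse 3. Ern1, the sensor that splices Xbp1 mRNA, had 84.6, 65.1 and 75.3 RPF CPM in WT, 71.3, 54.8 and 70.5 in Bcat, 59.1, 56.6 and 75.3 in Myc, and 29.4, 11.5 and 16.3 in BM (−1.54 ± 0.382, adjusted p 0.0404, and 0.000197 without BM mouse 1). It was low in BM mice alone, and its call was made in each fit that left out 1 mouse.

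Detoxification and secreted proteins of hepatocytes were mixed with more calls below than above. All genes also had more below, with 4.54% against 3.59% above in RNA, and 7.68% against 4.79% in RPFs. Among conjugating enzymes 10 of 47 were called below and 1 above in RNA (median −0.44), and 11 and 2 of 46 in RPFs (median −0.31). Among cytochrome P450 genes of families 1 to 4 these counts were 7 and 0 of 52 in RNA, and 8 and 2 of 52 in RPFs, and among coagulation and complement genes 7 and 2 of 33 at both layers. The counts below in RNA were 18, 16 and 15 without BM mouse 1, and in RPFs 16, 18 and 18, with 5, 6 and 4 above. In that fit 14.6% of all genes were called below in RNA and 24.5% in RPFs. The P450 count below in RPFs was 2 to 7 over the other fits. For conjugation the lowest count below over the fits without 1 mouse was 7 at both layers, and for coagulation and complement 5. Sult2a8, a bile acid sulfotransferase, had 1208, 755 and 1245 RNA CPM in WT, 776, 666 and 657 in Bcat, 1203, 1245 and 830 in Myc, and 72, 44.4 and 40.4 in BM (−3.77 ± 0.35, adjusted p 4.19e-05, and −4.07 without BM mouse 1). Mbl2, a lectin that starts complement activation, had 242 to 401 RNA CPM in the 9 mice of the other genotypes and 105, 52.4 and 43.4 in BM (−2.10 ± 0.356, adjusted p 0.00572, and −2.58 without BM mouse 1).

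The genes furthest above the sum included some known from the fasting liver. Igfbp1 (chr11:7147651-7152546 in GRCm39), a binding protein of insulin-like growth factors that insulin represses, had 16, 97.1 and 29.8 RNA CPM in WT, 214, 72.1 and 365 in Bcat, 5.27, 5.24 and 13 in Myc, and 181, 1858 and 2969 in BM (5.52 ± 1.25, adjusted p 0.0268, and 6.06 without BM mouse 1). BM mice 2 and 3 exceeded all others, and BM mouse 1 overlapped Bcat. Lpin1 (chr12:16584818-16703913 in GRCm39), a phosphatidate phosphatase that also coactivates fatty acid oxidation genes, had 79.7, 88 and 72.5 RNA CPM in WT, 72, 96.1 and 88.9 in Bcat, 28.7, 35.6 and 43.8 in Myc, and 106, 837 and 1220 in BM (4.22 ± 0.775, adjusted p 0.00936, and 4.73 without BM mouse 1). Here all 3 BM mice exceeded all others, with mouse 1 only just above Bcat.

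Pck1, the gatekeeper of gluconeogenesis, split the BM mice. It had 610, 652 and 634 RNA CPM in WT, 628, 332 and 482 in Bcat, 311, 392 and 207 in Myc, and 349, 1797 and 2190 in BM (2.65 ± 0.651, adjusted p 0.0391, and 3.11 without BM mouse 1), so BM mouse 1 lay within the Myc and Bcat range. The call was lost without BM mouse 2 and without BM mouse 3. Ppargc1a, the coactivator that drives gluconeogenic genes, had 16 to 29.9 RNA CPM in the 9 mice of the other genotypes and 45.5, 237 and 288 in BM (2.85 ± 0.672, adjusted p 0.0327, and 3.32 without BM mouse 1), and was called in each fit that left out 1 mouse. The list of fasting and fatty acid oxidation genes as a whole did not lean one way: 4 of 28 were called above and 1 below in RNA (median −0.12), and 5 and 2 of 30 in RPFs (median −0.05). Its counts were 7 and 7 in RNA, and 8 and 6 in RPFs, without BM mouse 1. The lowest count above over the fits without 1 mouse was 2 at each layer.

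Etnppl, an enzyme that breaks down phosphoethanolamine, fell in Bcat, and in BM only mouse 1 stayed near that level. It had 175, 140 and 142 RNA CPM in WT, 4.88, 3.96 and 8.95 in Bcat, 92.2, 101 and 99.1 in Myc, and 11.4, 143 and 222 in BM (5.02 ± 0.925, adjusted p 0.00941, and 5.57 without BM mouse 1). BM mouse 3 exceeded all 3 WT mice and BM mouse 2 exceeded 2 of them. Mfsd2a, a lysophospholipid transporter, had 1.23 to 10.1 RNA CPM in the other genotypes and 40, 56.7 and 65 in BM (3.70 ± 0.777, adjusted p 0.0195, and 3.88 without BM mouse 1), a call lost without WT mouse 1. Plin4, a coat protein of lipid droplets, had at most 0.819 RPF CPM in the other genotypes and 22.7, 24.7 and 15.1 in BM (7.30 ± 1.08, adjusted p 0.0046, and 7.23 without BM mouse 1), with BM mouse 1 among the high ones.

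Urea cycle and amino acid breakdown genes were called mostly above the sum. In the list of urea cycle and nitrogen genes 5 of 17 were called above and none below at both layers (medians 0.43 in RNA and 0.46 in RPFs), and 3 to 5 over the fits without 1 mouse other than BM mouse 1. In the fit without BM mouse 1 they were 8 above and 1 below in RNA, and 8 and 2 in RPFs. Asl, which releases fumarate from argininosuccinate, had 238 to 354 RNA CPM in WT, 142 to 183 in Bcat, 234 to 370 in Myc, and 319, 1257 and 1300 in BM (2.54 ± 0.529, adjusted p 0.0185, and 2.96 without BM mouse 1). BM mice 2 and 3 were above every other mouse, while BM mouse 1 lay within the range of WT and Myc. Asl was called at both layers in each fit that left out 1 mouse.

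Cps1, the entry enzyme of the cycle, had 5603 to 6347 RNA CPM in WT, 4021 to 5152 in Bcat, 4172 to 6057 in Myc, and 6306, 15301 and 14586 in BM (1.61 ± 0.399, adjusted p 0.0401, and 1.92 without BM mouse 1), a call lost without BM mouse 2 or 3. Got1, a cytosolic aspartate aminotransferase, had 26.4 to 40.6 RNA CPM in WT, 54.5 to 115 in Bcat, 35.2 to 46 in Myc, and 126, 986 and 1066 in BM (2.89 ± 0.759, adjusted p 0.0506, and 3.40 without BM mouse 1). This call was lost without BM mouse 2 or 3, Myc mouse 1 or 2, or WT mouse 2. Amino acid catabolism gave 5 of 30 called above in RNA and 6 of 30 in RPFs, with none below (medians 0.33 and 0.53). Its count fell to 0 at both layers without BM mouse 2 or BM mouse 3, was 0 to 3 over the other fits that kept BM mouse 1, and was 13 and 19 without BM mouse 1, with 4 and 1 called below.

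Periportal (zone 1) genes, which overlap these lists, split in both directions, with 8 of 26 above and 5 below in RNA (median 0.43) and 8 and 3 in RPFs (median 0.59). The count above was 4 at both layers without BM mouse 2 or BM mouse 3, 11 in RNA and 15 in RPFs without BM mouse 1, and 5 in RPFs without Bcat mouse 2. The list's median RNA effect was −1.14 in Bcat and −1.16 in BM, while the summed RNA level of the list was 32510 to 35256 CPM in WT, 18247 to 20871 in Bcat, 21986 to 27122 in Myc, and 17839, 31469 and 31265 in BM mice 1 to 3. By its sum BM mouse 1 lay under Bcat, and BM mice 2 and 3 lay between Myc and WT.

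Circadian genes leaned above the sum, with 16 of 18 positive in RNA and 17 of 21 in RPFs, but most were not called. Over 12 mice 5 of 18 were called above in RNA (median 0.62) and 6 of 21 in RPFs (median 0.87), with none below. The count above was 3 to 5 at both layers over the fits without 1 mouse other than BM mouse 1. The fit without BM mouse 1 called 9 above and 1 below in RNA, and 10 and 1 in RPFs, and DESeq2 also called 1 below at each layer. Per1, a light- and hormone-induced clock repressor, had 0.876, 1.64 and 2.33 RNA CPM in WT, 3.61, 1.7 and 3.62 in Bcat, 1.15, 1.05 and 2.23 in Myc, and 15.2, 23.9 and 19.9 in BM (2.79 ± 0.607, adjusted p 0.0235, and 2.95 without BM mouse 1). All BM mice, mouse 1 included, exceeded all others. Tef, an output transcription factor of the clock, had 21.1 to 31.8 RNA CPM in WT, 11.9 to 19.6 in Bcat, 21.1 to 31 in Myc, and 43.4, 55 and 46.2 in BM (1.76 ± 0.302, adjusted p 0.00598, and 1.83 without BM mouse 1). The hour of death per mouse was not among the labels used, and its part in these values was not tested.

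**Figure D4:**
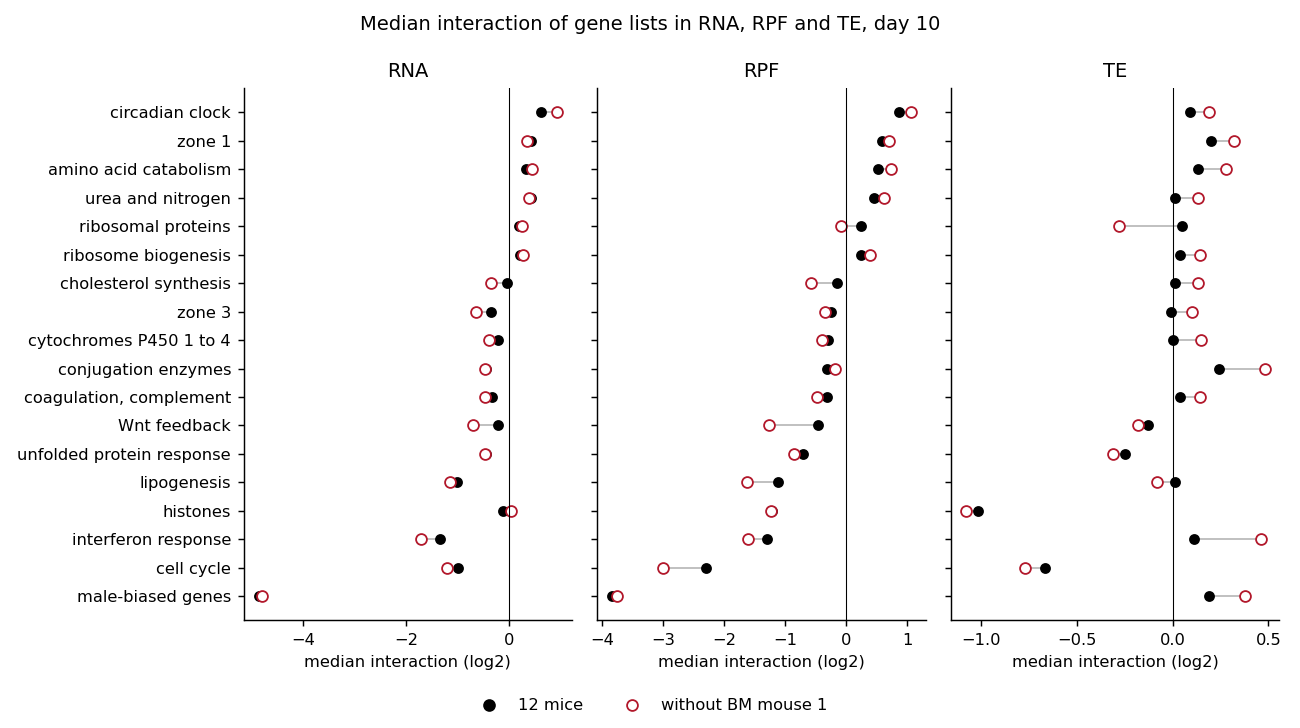
Median interaction (log2) of 18 gene lists in RNA, RPFs and TE. Filled points are the fit of 12 mice and open points the fit without BM mouse 1. Male-biased genes (−4.86 in RNA) and cell cycle genes (−2.30 in RPFs) lie furthest below 0, and the clock (0.62 in RNA) lies above it.

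The direct Wnt targets that read out β-catenin had no call by edgeR over 12 mice. Their interaction was negative for 7 of 11 in RNA and 8 of 11 in RPFs. Of 11 Wnt feedback genes none was called at either layer (edgeR; DESeq2 called 1 below at each), with medians of −0.21 in RNA and −0.46 in RPFs. Without BM mouse 1, 5 were called below in RNA (median −0.70) and 6 in RPFs (median −1.26). The list's median level per mouse in RNA, as log2 ratio to the WT mean, was 1.64, 1.63 and 1.64 in Bcat, and 2.36, 0.99 and 0.44 in BM, so BM mouse 1 was above every Bcat mouse and BM mice 2 and 3 below them.

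Axin2, a Wnt-induced scaffold that helps degrade β-catenin, had 3.5, 1.44 and 3.37 RNA CPM in WT, 20.6, 26 and 20.8 in Bcat, 2.52, 4.19 and 3.17 in Myc, and 31.2, 9.65 and 6.64 in BM (−0.75 ± 0.74, adjusted p 0.608; −1.73 and 0.0149 without BM mouse 1). Lgr5, a receptor of R-spondin, had 8.76, 6.16 and 8.28 RNA CPM in WT, 28.5, 29.9 and 27.6 in Bcat, 8.48, 5.03 and 6.33 in Myc, and 53.5, 18.1 and 14.1 in BM (0.24 ± 0.576, adjusted p 0.851; −0.60 and 0.195 without BM mouse 1). In both genes BM mouse 1 exceeded Bcat and the other BM mice lay between Bcat and WT.

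Glul, the glutamine synthetase of pericentral hepatocytes, had 858, 478 and 767 RNA CPM in WT, 6690, 5300 and 3576 in Bcat, 668, 625 and 560 in Myc, and 5000, 2594 and 2131 in BM (−0.50 ± 0.44, adjusted p 0.568; −0.95 and 0.0766 without BM mouse 1). The list of pericentral (zone 3) genes had 2 of 28 above and 4 below in RNA (median −0.34) and 3 and 1 in RPFs (median −0.25), and without BM mouse 1 4 above and 10 below at both layers. The fits without another mouse gave 1 to 3 above and 1 to 5 below in RNA, and 1 to 2 and 0 to 2 in RPFs.

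**Figure D5:**
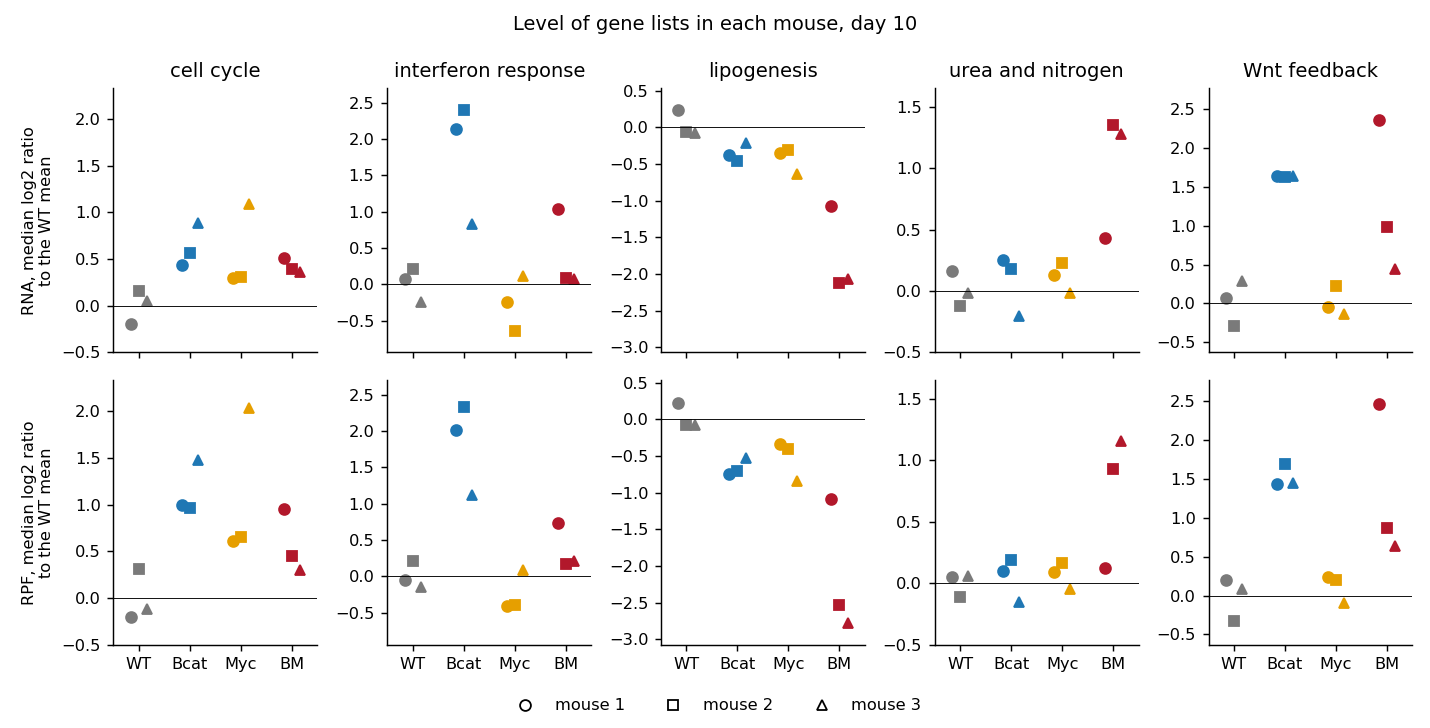
Median log2 ratio to the WT mean in each mouse for cell cycle, interferon response, lipogenesis, urea and nitrogen, and Wnt feedback genes, RNA above and RPFs below. BM mouse 1 differs from BM mice 2 and 3 in the interferon, lipogenesis, urea and Wnt panels (Wnt feedback RNA 2.36 against 0.99 and 0.44).

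The driver genes gave no call by edgeR over 12 mice. Ctnnb1 RNA was 258 to 285 CPM in WT and 180 to 203 CPM in BM, with an interaction of −0.39 (adjusted p 0.18). DESeq2 (0.0999) and edgeR's fit of all 24 mice (0.0233) called it, and both also called Ctnnb1 in RPFs (0.0812 and 0.0427). Reads at the mouse Myc gene in RPFs were 5.37, 11.6 and 18.6 CPM in WT, 16.9, 11.5 and 34.3 in Bcat, 45.2, 49.2 and 59.7 in Myc, and 59.4, 124 and 167 in BM (0.35 ± 0.667, adjusted p 0.777). Every Myc and BM mouse lay above every WT and Bcat mouse, while BM mouse 1 lay among the Myc mice and WT overlapped Bcat. In RNA there was no such rise in Myc mice, with 21.6 to 27.4 CPM against 23.4 to 46.1 in WT. Whether reads of the transgene align to the mouse gene was not tested. Ccnd1, the G1 cyclin named by the study, had 13 to 27.5 RPF CPM in WT, 45.1 to 87.7 in Bcat, 12 to 14.1 in Myc, and 58.8, 16.5 and 16.7 in BM (−0.37 ± 0.643, adjusted p 0.753; −1.26 and 0.0326 without BM mouse 1).

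Genes of ribosome production had few calls over 12 mice, near or under the shares of all genes (3.59% above in RNA and 4.79% in RPFs). The median RNA effect of 47 ribosome biogenesis genes was 0.29 in Bcat, 0.67 in Myc and 1.24 in BM, with 2 called above in RNA, 1 in RPFs and none below (medians 0.21 and 0.24). The calls above were 12 and 20 without BM mouse 1, where 10.9% and 17.4% of all genes were called above. Gnl3, a nucleolar GTPase, had 30.8 to 35 RNA CPM in WT, 35.2 to 45 in Bcat, 61.4 to 75.4 in Myc, and 99.6, 155 and 198 in BM (0.86 ± 0.287, adjusted p 0.11; 1.09 and 0.00206 without BM mouse 1). All BM mice exceeded all Myc mice. Of 85 ribosomal protein genes tested in RNA and 81 in RPFs none was called (edgeR), with medians of 0.20 and 0.25. DESeq2 called 1 above in RNA. Leaving out a mouse gave 11 called above in RNA without Bcat mouse 1, 4 in RNA without BM mouse 1, and 14 in RPFs without Myc mouse 3, where the RPF median was 0.82, against −0.08 without BM mouse 1.

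TE had few calls over 12 mice. No gene of 11059 was called above (0%) and 3 (0.0271%) below by edgeR, with 475 genes at an unadjusted p under 0.05 and 553 expected if nothing changed, and DESeq2 called 4 and 15. Both fits treated the 2 libraries of a mouse as independent, although their deviations correlated (0.203 to 0.605). As that ignores the pairing, 475 against 553 does not show that TE was unchanged. Without BM mouse 1, 74 (0.662%) of 11179 were called above and 315 (2.82%) below. With the mouse as a block, which uses that the RNA and the RPFs came from the same lysate, the counts were 6 and 34, and 804 and 922 without BM mouse 1.

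Selenbp2, a selenium-binding protein of hepatocytes, fell further in RPFs than in RNA. Its RNA was 495, 513 and 758 CPM in WT, 323, 179 and 156 in Bcat, 635, 619 and 557 in Myc, and 59.4, 60.8 and 46.5 in BM. Its RPFs were 332, 416 and 588 CPM in WT, 201, 124 and 119 in Bcat, 482, 425 and 414 in Myc, and 4.76, 2.47 and 1.85 in BM. The TE interaction was −3.55 ± 0.597 (adjusted p 0.0347, and −3.96 without BM mouse 1), called in 6 of the 11 fits without a mouse other than BM mouse 1. Reads may be shared with its near-identical neighbour Selenbp1.

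Hspa1a, an inducible heat shock chaperone, departed from the sum in RPFs, with no detectable departure in RNA. Its RNA was 22.3 to 42.2 CPM in WT and 33.1 to 57.8 CPM in BM (interaction 0.17, adjusted p 0.8). Its RPFs were 36.7, 13.3 and 17.5 CPM in WT, 70, 49.2 and 45.2 in Bcat, 30.4, 20.9 and 19.3 in Myc, and 6.24, 5.96 and 5.55 in BM, with no overlap between BM and any other genotype. The TE interaction was −3.45 ± 0.598 (adjusted p 0.036, and −3.62 without BM mouse 1), lost in 9 of those 11 fits and in the fit of all 24 mice (adjusted p 0.213). The third TE call, Ugt2b38 (−3.99 ± 0.51, adjusted p 0.00119), a glucuronosyltransferase with near-identical copies, had at most 3 RPF counts in each BM mouse, so its value gives no bound.

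Among cell cycle genes the TE median was −0.67 over 93 genes with no call by edgeR and 1 below by DESeq2. With the mouse as a block 8 were called below, Top2a and Kif2c among them. Without BM mouse 1 the median was −0.77 with 7 called below and none above, among them Top2a (−4.66, adjusted p 0.0333), and with the block as well 36 were called below and 2 above. Of 38 histone genes none was called in TE over 12 mice by edgeR (median −1.02), while 5 were called below by DESeq2, 4 with the mouse as a block and 3 in the fit of all 24 mice, H2bc14 in each case. The fit without BM mouse 1 called 10 below, and 19 below and 2 above with the block as well.

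Some markers of the other liver cells were also called, with the most calls among endothelial markers in RPFs. Over all genes 3.59% were called above and 4.54% below in RNA, and 4.79% and 7.68% in RPFs. Without BM mouse 1 these shares were 10.9% and 14.6% in RNA, and 17.4% and 24.5% in RPFs. The lists are short, so the smallest counts here do not set a list apart from all genes. Of 12 endothelial markers 6 were called above in RPFs (median 0.47) and 1 in RNA (median −0.03), with none below. The RPF count was 7 without BM mouse 1, 2 to 4 over 10 of the fits without another mouse, and 8 without Bcat mouse 3. The summed RNA level of the list was 938 to 957 CPM in WT and 564 to 645 CPM in BM, and the summed RPF level 1389 to 1571 and 1114 to 1400 CPM. Ptprb, an endothelial phosphatase, had 191, 216 and 228 RPF CPM in WT, 144, 125 and 143 in Bcat, 156, 155 and 140 in Myc, and 142, 202 and 219 in BM (0.94 ± 0.224, adjusted p 0.0344, and 1.11 without BM mouse 1), so BM mice 2 and 3 were at the WT level and the others under it. Of 12 Kupffer cell markers 1 was called above in RNA and 2 in RPFs, and of 12 stellate cell markers 2 at each layer, with none below. The Kupffer counts were 2 and 5, and the stellate counts 3, with 1 below, and 4, without BM mouse 1. None of 7 cholangiocyte markers in RNA or 6 in RPFs was called (edgeR), and of 7 erythroid markers 1 was called below in RPFs. Without BM mouse 1 the cholangiocyte list had 1 below at each layer, and the erythroid list 1 above in RNA, and 2 above and 1 below in RPFs. The hepatocyte marker sum moved with genotype too, from 112728 to 118598 RNA CPM in WT to 44347 to 50772 in Bcat, 54460 to 66397 in Myc and 41097 to 49752 in BM, and its part in these values was not tested.

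Few genes called at day 10 were also called at day 4, but those below the sum were called there more often than all genes. At day 4, 195 genes of 12040 (1.62%) lay above and 345 (2.87%) below the sum in RNA, and 289 (2.41%) and 412 (3.43%) of 12000 in RPFs, in a fit of all 24 mice. Of the RNA genes called at day 10, 5 of 422 above (2.56% of the day 4 calls) and 49 of 534 below (14.2%) were called in the same direction at day 4, and 27 and 15 in the opposite direction. In RPFs the same direction was called for 11 of 568 (3.81%) and 57 of 911 (13.8%), and the opposite for 38 and 33. The difference between the days, which uses the same day 10 mice as those calls, was itself called in the day 10 direction for 59.2% and 60.7% of them in RNA and 71.7% and 66.1% in RPFs. With the day 10 calls also taken from the fit of 24 mice, 10 of 788 above and 87 of 1224 below were shared in RNA. These are 5.13% and 25.2% of the day 4 calls. In RPFs 24 of 1456 and 90 of 1802 were shared, which are 8.3% and 21.8% of the day 4 calls. Over all genes the day 10 interaction minus that of day 4 was called higher for 541 genes (4.49%) and lower for 706 (5.86%) in RNA, and for 1002 (8.35%) and 1148 (9.57%) in RPFs. In TE no gene of 11279 was called either way by edgeR, with 343 at an unadjusted p under 0.05, and DESeq2 called 2 higher and 4 lower. These TE fits also treated the 2 libraries of a mouse as independent.

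The median of the cell cycle genes was above the sum at day 4 (0.90 in RNA and 0.73 in RPFs) and below it at day 10. Most members were not called at day 4. At day 4, 17 of 95 were called above in RNA and 11 in RPFs with none below, and the difference between the days was called lower for 49 in RNA (median −2.14) and 64 of 96 in RPFs (median −3.45), and higher for none. E2f8 had an RPF interaction of 1.22 at day 4 (adjusted p 0.0293) and a difference of −4.28 ± 0.46 (adjusted p 1.24e-05). Amino acid catabolism moved the other way, with 15 of 30 called below at day 4 in RNA and the difference called higher for 18 and lower for none (median 1.22). Ass1, which joins citrulline and aspartate in the urea cycle, went from −1.53 (adjusted p 0.00149) to a difference of 2.74 ± 0.338 (adjusted p 3.27e-05).

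Male-biased genes had 5 of 36 called below at day 4 in RNA, and the difference was called lower for 30 (median −5.04). Hsd3b5 had an RPF interaction of −0.60 at day 4 (adjusted p 0.102) and a difference of −7.15 ± 0.346 (adjusted p 2.78e-11). Acacb, by contrast, was below the sum at both times, with an RNA interaction of −1.73 at day 4 (adjusted p 9.48e-06) and a difference of 0.38 ± 0.258 (adjusted p 0.439).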

How the data were processed

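RNA and RPF libraries of 12 day 10 livers were analysed, with 12 day 4 livers for the comparison of times. The deposited RPF values are raw counts: the authors trimmed reads with Cutadapt 1.18, removed rRNA and tRNA reads and aligned the rest with BBmap against coding transcripts of GENCODE vM27 (GRCm39), with 1 transcript per gene, the most abundant by mean TPM over the RNA libraries, removed duplicates with UMI-tools, and counted reads of 30 to 38 bases in coding sequences without their first 20 and last 10 codons. The deposited RNA values are expected counts from Bowtie2 2.3.5.1 and RSEM 1.3.3 by the authors, summed here per gene and rounded. A transcript with no RPF line was taken as 0.

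Counts were tested with edgeR 4.0.16 (R 4.3.3, TMM factors, filterByExpr with a minimum count of 10), a coefficient per genotype and the quasi-likelihood test of the interaction, with Benjamini-Hochberg adjustment over all tested genes. TE was fitted as the same interaction times library type in both libraries of 12 mice. Errors are standard errors; CPM use TMM-scaled libraries, and with 3 mice per genotype p-values measure the spread between mice. The fits were tested on simulated counts. Alternatives were DESeq2 1.42.0, other scaling, filters, blocks, all 24 mice in the fit, and leaving out each mouse. Symbols came from a reference table for 20614 of 20622 genes.

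The members, gene lists and tests were chosen with earlier results of these data known. Named genes were up to 6 per layer and direction with the largest interaction, with and without BM mouse 1, the genes the study names, and up to 4 called members per list and direction. The rule picks 238 genes, of which the text describes a part; the others are not reported here by name. Male-biased, female-biased, growth hormone and histone lists were added after values were seen. Replicate numbers did not pair mice across genotypes (correlations of deviations −0.182 to 0.213), while the 2 libraries of a mouse, from the same lysate, did (0.203 to 0.605).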

Additional observations from a re-analysis of the deposited data

Results flagged for a closer look

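The interaction at day 10 was tested against that at day 4, and the results below differed between the 2 times (edgeR's quasi-likelihood test in a fit of 24 mice, adjusted p under 0.1). Over all genes the day 10 interaction was higher for 541 and lower for 706 in RNA, and higher for 1002 and lower for 1148 in RPFs.

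The genes below were picked for the largest day 10 interaction, and the difference uses the same day 10 mice, so the choice itself favours large differences and they are given as a description. Of the genes furthest above the sum, the difference (day 10 minus day 4, log2) in RNA was 5.05 for Igfbp1, 5.40 for Nipal1, a magnesium transporter, 8.02 for Etnppl, 5.87 for Lpin1 and 5.28 for Mfsd2a, while 3.63 for Phf11c was not called (adjusted p 0.159). In RPFs it was 6.74 for Plin4, 6.42 for Nipal1, 8.76 for Etnppl, 5.02 for Igfbp1 and 5.75 for Lpin1, while 3.75 for Vldlr was not called (adjusted p 0.162). Etnppl lay below the sum at day 4 in RNA (−3.03, adjusted p 0.0253).

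Of the genes furthest below the sum, the difference in RNA was −6.02 for Elovl3, −7.06 for Dio1, −6.62 for Mup7, −6.16 for Mup15, −6.26 for Mup17 and −5.87 for Mup14. In RPFs it was −10.53 for Moxd1, a monooxygenase-like protein that was detected mainly in the single genotypes, −7.15 for Hsd3b5, −7.75 for Mup17, −7.24 for Mup15, −6.50 for Dio1 and −5.28 for Elovl3. The Mup genes are near-identical copies, so their separate values are uncertain.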

How the results depend on the processing

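The number of calls moved with the settings. At an adjusted p under 0.05, RNA calls were 168 above and 245 below, RPF calls 212 and 417, and the difference between the days was called for 339 and 463 genes in RNA and for 656 higher in RPFs. With all 24 mice in the fit the counts were 788 and 1224 in RNA, 1456 and 1802 in RPFs and 2 and 8 in TE. With library totals alone RNA had 231 above and TE 1 above, and RPFs 403 above and 1057 below. DESeq2 called 877 above in RPFs, 4 and 15 in TE, and 2 and 4 for the difference between the days in TE. Leaving out each mouse in turn gave 150 to 1295 above and 197 to 1735 below in RNA, 205 to 2091 and 316 to 2932 in RPFs, 0 to 74 and 1 to 315 in TE, and for the difference between the days 381 to 923 and 513 to 1572 in RNA, 805 to 1900 and 929 to 2478 in RPFs, and 0 to 20 and 0 to 122 in TE; the highest came without BM mouse 1 of day 10, where the dispersion of RNA fell from 0.0289 to 0.02 and of RPFs from 0.045 to 0.0254. With both libraries of a mouse as a block TE had 6 above and 34 below, and 804 and 922 without BM mouse 1. With the replicate number as a block, which pairs no mice, RNA had 484 and 657 and RPFs 539 and 917.

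Of 1482 values of 75 genes in RNA under an alternative, 1309 kept direction and call, 120 lost the call, 44 gained one and 9 changed sign; in RPFs these were 1248, 108, 32 and 14 of 1402 for 75 genes, and in TE 286, 15, 45 and 0 of 346 for 17 genes. All sign changes were in genes not called over 12 mice, and their cause was not tested. Their ranges over the fits without 1 mouse were −0.60 to 0.55 for Lgr5 RNA and −0.47 to 0.63 for Lgr5 RPFs, −0.68 to 0.31 for Notum RNA and −1.03 to 0.42 for Notum RPFs, −0.01 to 0.42 for Hspa1a RNA, and in RPFs −1.26 to 0.02 for Ccnd1, −0.25 to 0.74 for Igfbp2 and −0.08 to 0.98 for Myc. Notum RNA was also −0.01 with 24 mice and with at least 10 counts in every library, −0.03 with library totals and −0.05 with the replicate number as a block, Notum RPFs −0.05 with library totals and −0.22 with that block, and Igfbp2 RPFs −0.11 with library totals. RNA depth, lowest in BM, and 3 mice per genotype limit the calls of low genes, and genes with at most 3 counts in every mouse of a genotype have no bound on their fold.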

Other observations

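The lists in this paragraph had calls in both directions at day 10. All genes had 3.59% above and 4.54% below in RNA, and 4.79% and 7.68% in RPFs, and MYC targets were near these shares. Of 33 MYC targets 1 was called above and 3 below in RNA (median 0.27), and 2 and 2 in RPFs (median 0.01), and without BM mouse 1 these counts were 11 and 3 in RNA, and 8 and 9 in RPFs. The 11 above in RNA lay over the share of all genes in that fit. Of bile acid genes 5 of 27 were called above and 4 below in RNA (median −0.04), with Cyp39a1, an oxysterol hydroxylase, above (3.09 ± 0.447, adjusted p 0.00152) and Cyp7b1 below, so that 2 oxysterol hydroxylases departed in opposite directions. Cyp39a1 had 43.1, 35.5 and 28 RNA CPM in WT, 15.5, 13.7 and 24.4 in Bcat, 8.94, 15.7 and 9.68 in Myc, and 27.4, 62.2 and 58.7 in BM. Of p53 and apoptosis genes 5 of 28 were called above and 1 below in RNA, and of acute phase genes 4 and 3 of 28. Without BM mouse 1 the RNA counts above and below were 6 and 9 for bile acid, 5 and 7 for p53 and apoptosis, and 6 and 10 for acute phase genes. Over the 11 fits without another mouse the RNA counts above and below were 0 to 1 and 0 to 2 for MYC targets, 3 to 5 and 2 to 4 for bile acid, 3 to 5 and 1 for p53 and apoptosis, and 1 to 4 and 0 to 4 for acute phase genes. Cebpd, an acute phase transcription factor, had 4.16 to 6.36 RNA CPM in WT, 5.73 to 6.78 in Bcat, 1.83 to 3.72 in Myc, and 11.2, 25.1 and 30.2 in BM (2.63 ± 0.517, adjusted p 0.0129). All BM mice exceeded all others.

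Cholesterol synthesis genes had no call in RNA over 12 mice (edgeR), with a median of −0.04, and 8 of 25 below without BM mouse 1 (median −0.35). In RPFs 1 of 25 was called below over 12 mice (median −0.15), and 13 below and 1 above without BM mouse 1 (median −0.58). Their summed RNA level was 9664 CPM in BM mouse 1, within the Bcat range of 9017 to 10870, and 4605 and 4075 CPM in the other BM mice, against 3891 to 4110 in Myc and 5977 to 6753 in WT.

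Igf2, the fetal growth factor, had at most 0.931 RNA CPM in each mouse of the other genotypes and 29.7, 33.3 and 44 CPM in BM, with no BM mouse apart from the others. Its counts in the other genotypes reach no more than 3 per mouse in at least 1 genotype, so no fold is given.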
